A study of Mus musculus with 6 samples.

Results

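The proteasome is the protease complex that breaks down proteins tagged with ubiquitin, and its genes were followed here in the mesenchymal progenitors of a loaded muscle. Members were all protein-coding genes of the count table whose symbol is Psma to Psmg followed by a number, without Psmb8, Psmb9 and Psmb10, which encode the inducible immunoproteasome subunits. The rule found 47 of the 54100 genes in the table. By textbook role, 14 members form the 20S core particle, 17 form the 19S regulatory particle, and 16 are other activators, inhibitors, assembly factors or tissue-restricted subunits. The cells were fibro-adipogenic progenitors (FAPs), the Pdgfra+ stromal cells between muscle fibres, sorted from the plantaris, a calf muscle, of C57BL/6 mice. The overloaded group had 3 libraries from plantaris under overload, and the sham group had 3 libraries from sham plantaris. Both groups shared the strain, the muscle and the Pdgfra+ sort, and each library was made from 1000 sorted cells by a published method (Hashimshony et al.) that tags transcripts at their 3′ end. The age and sex of the mice, how the overload was applied, how long it lasted and whether each library came from its own animal were not stated in the labels, so the p-values speak only for differences among these 6 libraries, part of which may be technical.

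The core particle is a barrel of stacked rings: outer rings of alpha subunits that gate the entrance, and inner rings of beta subunits, some of which cut proteins. The 19S particle caps the barrel, binds the ubiquitin chain, removes it, and unfolds the protein with a ring of ATPases before threading it into the core. In skeletal muscle the system is best known for degrading the contractile proteins of wasting fibres, and in all cells it clears misfolded and short-lived proteins.

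Proteasome messenger RNA was higher in overloaded FAPs. Of the 39 members with enough counts to be tested, 21 were called higher (53.8%) and 0 lower, at an adjusted p under 0.05 in edgeR's quasi-likelihood test with Benjamini-Hochberg adjustment over all 7207 genes tested. Over all tested genes, 15.0% were called higher and 14.3% lower. After adjustment DESeq2 called 18 members higher and 0 lower, beside 12.3% of all genes higher. In limma-voom 19 members were called higher and 0 lower after adjustment, beside 14.3% of all genes higher. At an unadjusted p under 0.05 edgeR counted 29 members higher and 0 lower. The share of all genes at that threshold was not computed, so nothing is read from the 29. The median log2 fold change, overloaded over sham, was 0.79 over the tested members and -0.02 over all genes tested, and 38 of the 39 members had a positive value. Psme1, at -0.04, was the exception. In 25 tested members (64.1%) every overloaded library lay above every sham library, against 21.2% of all genes tested. The plot of fold changes by role shows these values member by member.

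**Figure D1:**
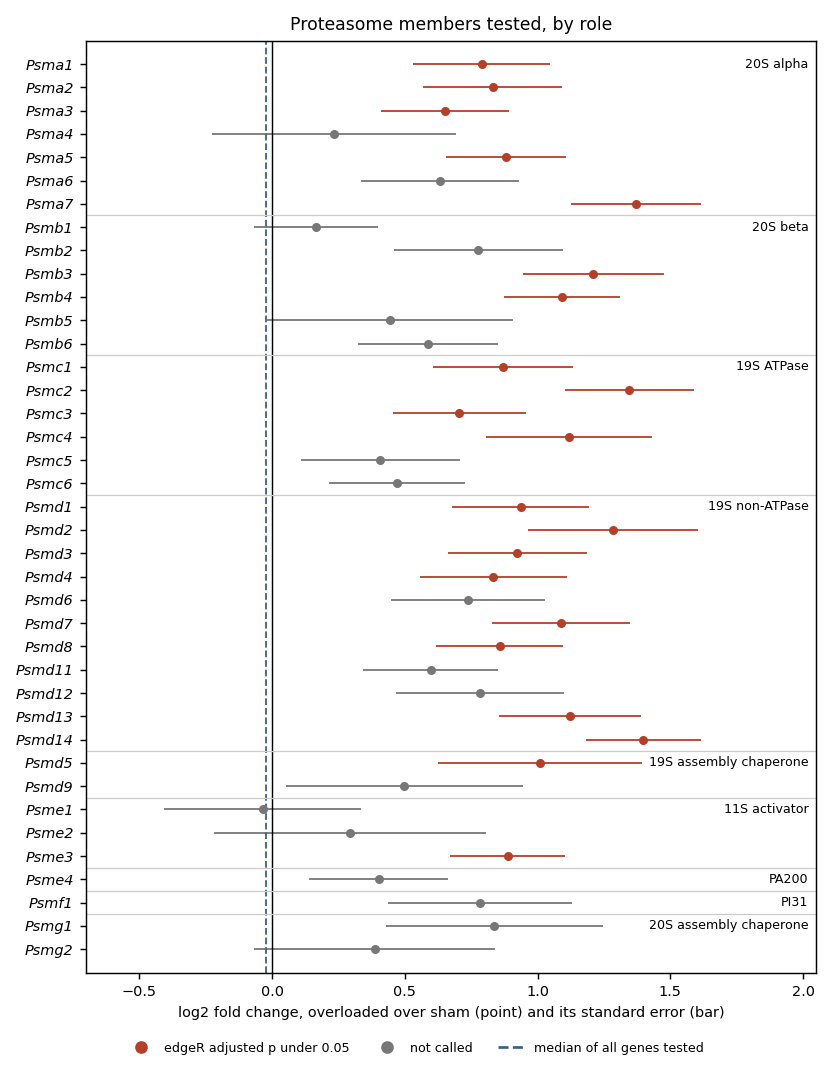
Log2 fold change (overloaded over sham, horizontal axis) of the 39 tested members, grouped by role from top to bottom, with bars of 1 standard error and the median of all genes tested as a dashed line. The 21 members called higher (red) lie between 0.65 and 1.40, and 38 of 39 points lie right of 0.

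The summed level of all members in CPM, which scales each gene's counts to the size of its library after TMM normalisation, was 3944, 4423 and 4451 in overloaded libraries 1, 2 and 3, against 2414, 2424 and 2281 in sham libraries 1, 2 and 3. The lowest overloaded sum was thus well above the highest sham sum. As a share of every count in a library, the members took 0.365%, 0.415% and 0.431% in overloaded libraries and 0.234%, 0.234% and 0.225% in sham libraries. In such pooled cells, fewer cells of a type and less RNA per cell cannot be told apart. All 21 called members were among the 35 that met the count minimum in all 3 sham libraries. Psma4, Psmb5 and Psmg2 were tested only through their overloaded counts, Psme2 through libraries of both groups, and none of these 4 was called. The 8 members too low to test were Psmb7, Psmd10, Psme2b, Psmg3, Psmg4, Psma8, Psmb11 and Psmc3ip.

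Totals were 850857 to 1124210 counts in overloaded and 500402 to 754456 in sham libraries, so depth moved with the groups. With all libraries thinned to 500402 counts, 22 of 36 tested members were called higher, beside 15.6% of all genes tested. Background was gauged by reads assigned to olfactory and vomeronasal receptors, genes of sensory neurons. They made up 0.0308%, 0.109% and 0.0232% of overloaded and 0.145%, 0.182% and 0.0781% of sham libraries. The group means were 0.0544% in overloaded and 0.135% in sham libraries, so this share partly moved with the groups. With its log2 as a covariate, 11 members were called higher (5 of the 20S core, 5 of 19S), among them 9 of the 21. Over all genes 6.77% were then called higher. The median log2 fold change was then 0.93 for the 20S core and 0.92 for 19S. The defining marker Pdgfra was present in every library, at 607, 416 and 759 CPM in overloaded and 769, 780 and 1021 CPM in sham libraries. All 10 FAP markers were detected, 2 of them called higher (the collagens Col1a1 and Col3a1) and 6 lower (Dcn, Cd34, Gsn, Dpp4, Pi16 and Clec3b), with summed levels of 72360 to 84272 CPM in overloaded and 57381 to 74800 CPM in sham libraries. The 8 endothelial markers summed to 33.5 to 74.0 CPM in overloaded and 122 to 219 CPM in sham libraries, with Tek the highest of them in every library and called lower. The other 7 endothelial genes summed to 33.7, 50.2 and 8.10 CPM in overloaded libraries, against 91.6, 16.6 and 8.07 CPM in sham libraries, and these overlap. The 8 leukocyte markers summed to 1.92 to 16.3 CPM in overloaded and 15.8 to 20.7 CPM in sham libraries, with Tyrobp, Adgre1 and Lyz2 at 0 in all libraries. Pericyte markers (7 genes) summed to 98.3 to 148 CPM in overloaded and 99.6 to 176 CPM in sham libraries, and tenocyte markers (4 genes) to 29.8 to 55.5 CPM in overloaded and 25.6 to 29.0 CPM in sham libraries. Myofibre markers (6 genes) summed to 21.2 to 30.1 CPM in overloaded and 35.8 to 60.1 CPM in sham libraries, without overlap. Myogenic markers (6 genes, Myod1 at 0) summed to 10.4 to 25.1 CPM in overloaded and 20.05 to 43.6 CPM in sham libraries, and Schwann cell markers (4 genes, Sox10 at 0) to 0 to 5.77 CPM in overloaded and 1.35 to 12.4 CPM in sham libraries. The part of these other cell types in the proteasome result was not tested.

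The alpha, beta, ATPase and non-ATPase subunits with the largest fold changes (Psma7, Psmb3, Psmc2 and Psmd14) are shown by their promoters, beside the catalytic subunits Psmb5 and Psmb6, which were not called. On GRCm38, Psmd14 lies at chr2:61711694-61800376, Psma7 at chr2:180036374-180042433, Psmc2 at chr5:21785283-21803787 and Psmb3 at chr11:97703399-97713500. Each sequence is the 250 bases before the RefSeq start on GRCm38.p6, 5′ to 3′ on the gene's strand. Capitals mark the NF-Y box, which is CCAAT on one strand and reads as ATTGG on the opposite one, and the antioxidant response element core, TGACNNNGC. NF-Y is a general promoter factor, and the antioxidant response element binds the NRF factors that drive proteasome genes when the proteasome is impaired.
Psmd14 (chr2:61711444-61711693, plus strand): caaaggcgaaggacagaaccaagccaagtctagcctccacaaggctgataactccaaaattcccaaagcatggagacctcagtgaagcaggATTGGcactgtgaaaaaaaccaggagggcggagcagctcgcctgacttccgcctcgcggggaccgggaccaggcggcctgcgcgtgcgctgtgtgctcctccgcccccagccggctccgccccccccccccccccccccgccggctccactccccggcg
Psma7 (chr2:180042465-180042714, minus strand): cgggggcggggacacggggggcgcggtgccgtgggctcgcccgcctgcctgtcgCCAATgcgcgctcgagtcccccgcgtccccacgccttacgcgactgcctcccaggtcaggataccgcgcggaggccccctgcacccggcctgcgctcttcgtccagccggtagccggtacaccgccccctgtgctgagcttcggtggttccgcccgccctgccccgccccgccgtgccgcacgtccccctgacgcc
Psmc2 (chr5:21785025-21785274, plus strand): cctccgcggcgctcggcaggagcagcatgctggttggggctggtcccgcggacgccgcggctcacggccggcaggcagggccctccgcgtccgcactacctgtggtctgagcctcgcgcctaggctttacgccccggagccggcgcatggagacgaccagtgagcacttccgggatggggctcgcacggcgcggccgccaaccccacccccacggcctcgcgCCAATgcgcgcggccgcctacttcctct
Psmb3 (chr11:97703184-97703433, plus strand): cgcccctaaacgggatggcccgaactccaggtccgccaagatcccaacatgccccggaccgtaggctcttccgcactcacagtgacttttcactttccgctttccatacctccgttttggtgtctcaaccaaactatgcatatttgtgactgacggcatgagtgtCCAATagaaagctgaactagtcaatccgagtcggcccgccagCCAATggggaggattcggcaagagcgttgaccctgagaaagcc
Psmb5 (chr14:54617996-54618245, minus strand): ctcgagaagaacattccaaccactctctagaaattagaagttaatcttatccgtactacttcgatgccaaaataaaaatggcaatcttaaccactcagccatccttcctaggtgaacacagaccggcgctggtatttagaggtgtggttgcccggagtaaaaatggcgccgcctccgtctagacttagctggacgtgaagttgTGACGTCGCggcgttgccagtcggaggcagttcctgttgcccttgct
Psmb6 (chr11:70525107-70525356, plus strand): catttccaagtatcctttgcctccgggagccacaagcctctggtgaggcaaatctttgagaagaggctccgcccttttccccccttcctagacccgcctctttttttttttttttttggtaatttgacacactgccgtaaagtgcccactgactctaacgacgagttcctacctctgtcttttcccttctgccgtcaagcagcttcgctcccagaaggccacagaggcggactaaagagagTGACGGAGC

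The windows of Psma7, Psmb3, Psmc2 and Psmd14 held CCAAT, and those of Psmb5 and Psmb6 held TGACNNNGC. Psmd2, Psmd13, Psmc4 and Psmb4 had log2 fold changes of 1.28, 1.12, 1.12 and 1.09, and their windows held neither motif. Letters were searched on both strands of windows from 250 bases before to 50 after the start, which RefSeq gives for 39 members in 42 windows. Of all 32851 windows in the table, 37.4% held CCAAT and 12.4% held TGACNNNGC. Of the 42 windows of members, 33.3% held CCAAT and 14.3% held TGACNNNGC, close to those shares. Of the 18 called members with a window, 10 held CCAAT: Psma1, Psma2, Psma3, Psma7, Psmb3, Psmc1, Psmc2, Psmd4, Psmd14 and Psme3. Of the 15 tested members with a window that were not called, 1 held it, Psma6. Among the same members with a window, TGACNNNGC occurred in 0 of the 18 called and in 6 of the 15 not called: Psmb5, Psmb6, Psmc6, Psmd12, Psmd9 and Psme4. In Psmd14 a further overlapping pair, CCAAT and its reverse complement sharing bases, began 5 and 8 bases after the start. The second RefSeq window of Psmc2 held neither motif, and no member's window held both. These matches are letters in a window, and no test was made of their split between called and uncalled members. Windows were not given for Psmb1, Psmb2, Psmb7, Psmc3, Psmd3, Psmd7, Psmg2 and Psma8.

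**Figure D2:**
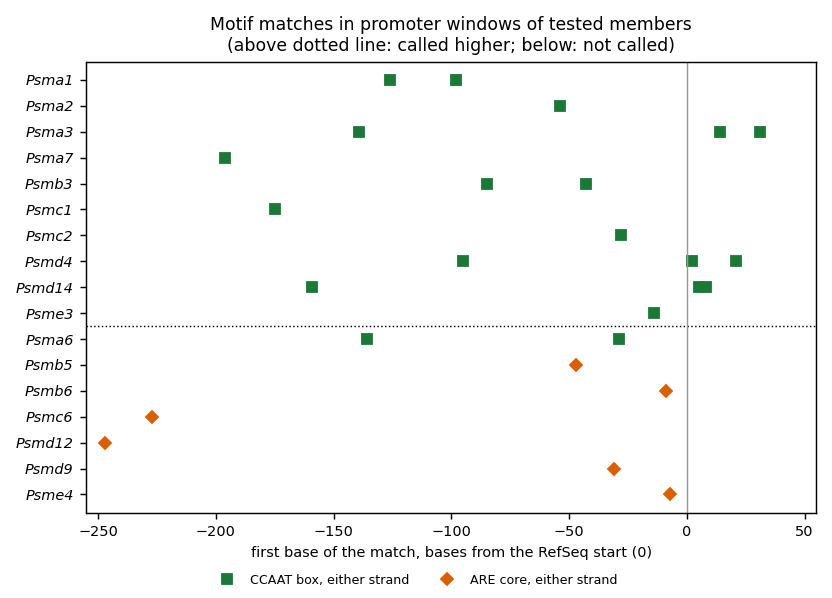
First base of each motif match (horizontal axis, bases from the RefSeq start at 0) in the promoter windows of tested members that hold 1, with squares for CCAAT and diamonds for TGACNNNGC on either strand. The 10 called members above the dotted line hold only squares, and the 6 members with diamonds all lie below it.

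Among the alpha subunits of the outer rings, all 7 were tested and 5 were called higher (71.4%, beside 15.0% of all genes tested). Their median log2 fold change was 0.79. Psma7 had the largest difference, at 178, 229 and 192 CPM in overloaded libraries against 98.8, 53.9 and 75.3 CPM in sham libraries. The groups were far apart, and the log2 fold change was 1.37 (SE 0.25, edgeR adjusted p = 7.42e-05). Psma5 stood at 194, 281 and 229 CPM in overloaded and 123, 153 and 108 CPM in sham libraries, higher by 0.88 on the log2 scale (SE 0.23, edgeR adjusted p = 0.00361). Psma2 had 119, 92.8 and 90.2 CPM under overload and 65.9, 41.5 and 60.5 CPM under sham. Its groups did not overlap, and the log2 fold change was 0.83 (SE 0.26, edgeR adjusted p = 0.0159). Psma1 measured 85.6, 125 and 94.9 CPM in overloaded libraries, with library 2 highest, and 63.0, 49.8 and 61.9 CPM in sham libraries. It was higher by 0.79 on the log2 scale (SE 0.26, edgeR adjusted p = 0.0203). Psma3 had 106, 127 and 159.6 CPM in overloaded libraries and 81.6, 80.9 and 86.1 CPM in sham libraries, a fold change of 0.65 on the log2 scale (SE 0.24, edgeR adjusted p = 0.0403).

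The remaining alpha subunits were not called. Psma6 had no overlap between groups but missed the threshold, at 0.63 on the log2 scale (SE 0.30, edgeR adjusted p = 0.109). Psma4, whose tail in yeast holds the gate shut, was low and scattered, at 16.4, 15.0 and 24.3 CPM in overloaded and 7.16, 20.7 and 20.2 CPM in sham libraries. Its sham libraries 2 and 3 lay within the overloaded range, and the log2 fold change was 0.23 (SE 0.46, edgeR adjusted p = 0.756). The Psma3 call was lost without any 1 library other than overloaded library 1, when edgeR adjusted p was 0.0523 to 0.182, and adjusted p ranged from 0.0193 to 0.330 over the 15 alternatives, DESeq2 and limma-voom among them. Ranges of other members cover the same alternatives. The Psma1 call was lost without overloaded library 2 (edgeR adjusted p = 0.10) or sham library 2 (0.0839), over a range of 0.0154 to 0.10. That of Psma2 was lost without overloaded library 1 (edgeR adjusted p = 0.0727) or sham library 2 (0.0911), over a range of 0.0130 to 0.236.

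Among the beta subunits, 6 of 7 were tested and 2 were called higher (33.3%, beside 15.0% of all genes tested). Both are without catalytic activity of their own. Psmb4 had 439.6, 334 and 316 CPM in overloaded libraries and 142, 191 and 180.3 CPM in sham libraries. Every overloaded value exceeded every sham value, and the log2 fold change was 1.09 (SE 0.22, edgeR adjusted p = 0.000272). Psmb3 had 104, 123 and 109 CPM in overloaded libraries and 35.8, 64.3 and 47.1 CPM in sham libraries. The log2 fold change was 1.21 (SE 0.27, edgeR adjusted p = 0.000798), the largest of the beta subunits tested. Psmb1, a structural subunit, had the smallest log2 fold change of the core, 0.16 (SE 0.23, edgeR adjusted p = 0.648). Its levels of 125, 143 and 135 CPM in overloaded libraries overlapped the 142, 91.3 and 124 CPM in sham libraries. Psmb2, also structural, had 0.78 on the log2 scale (SE 0.32, edgeR adjusted p = 0.0643) with overlapping groups, and was called without overloaded library 2 (0.0291) or sham library 2 (0.0417), over a range of 0.0291 to 0.446.

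The catalytic subunits were not called. Psmb6, the caspase-like subunit, had 86.6, 147 and 106 CPM in overloaded and 87.3, 87.1 and 52.5 CPM in sham libraries. Overloaded library 1 lay inside the sham range, and the log2 fold change was 0.59 (SE 0.26, edgeR adjusted p = 0.0928). Without that library it was 0.78 and passed (edgeR adjusted p = 0.0421). With the background-read covariate it was 1.10 and also passed (edgeR adjusted p = 0.0348, over a range of 0.0348 to 0.374). Psmb5, the chymotrypsin-like subunit and the main target of proteasome inhibitors, had 17.3, 22.6 and 13.9 CPM in overloaded and 15.8, 14.5 and 9.42 CPM in sham libraries. The groups overlapped, with a fold change of 0.44 on the log2 scale (SE 0.46, 95% interval -0.47 to 1.35, edgeR adjusted p = 0.514). Psmb7, the trypsin-like subunit, had too few reads for the test, with counts of 4, 0 and 7 in overloaded and 8, 9 and 1 in sham libraries. The last 300 bases of Psmb7 overlap an exon of Nek6, and how such reads were counted is not given.

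Among members, 19S had the larger share of calls, with all 17 of its members tested and 12 higher (70.6%), against 7 of 13 tested 20S members (53.8%). The 19S parts Sem1 and Adrm1 fall outside the naming rule and are not among the 17. Sem1 was not called, at -0.07 on the log2 scale (SE 0.29, edgeR adjusted p = 0.896), and Adrm1 was too low to test. Median log2 fold changes were 0.87 for 19S, with a range of 0.41 to 1.40, and 0.78 for the 20S core, with a range of 0.16 to 1.37. The ranges of the particles overlapped widely, and the split of calls between them was not tested. With the background-read covariate the order of these shares turned: 5 of 17 19S subunits (29.4%) and 5 of 13 20S subunits (38.5%) were called higher. The medians were then close, at 0.92 for 19S and 0.93 for 20S. Calls over all genes also fell with the covariate, from 15.0% to 6.77% higher.

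Of the 6 ATPases that form the unfolding ring, 4 were called higher (66.7%, beside 15.0% of all genes tested). Psmc2 was the most even, at 139, 142 and 138 CPM in overloaded libraries and 58.7, 56.0 and 49.8 CPM in sham libraries. Its replicates lay close together within each group, and the log2 fold change was 1.35 (SE 0.24, edgeR adjusted p = 8.29e-05). Psmc4 had 49.1, 70.2 and 77.5 CPM in overloaded and 30.1, 27.0 and 32.3 CPM in sham libraries, a fold change of 1.12 on the log2 scale (SE 0.31, edgeR adjusted p = 0.00654). Psmc1 had 99.1, 87.8 and 93.7 CPM in overloaded and 51.5, 62.2 and 41.7 CPM in sham libraries. It was higher by 0.87 on the log2 scale (SE 0.26, edgeR adjusted p = 0.0121). Psmc3 had 114, 92.8 and 91.4 CPM in overloaded and 60.1, 56.0 and 65.9 CPM in sham libraries, a fold change of 0.70 on the log2 scale (SE 0.25, edgeR adjusted p = 0.0331). Psmc1, Psmc3 and Psmc4 carry the C-terminal tails that dock into the alpha ring and open its gate, and their groups did not overlap.

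The smallest ATPase value was that of Psmc5, at 45.2, 56.4 and 62.5 CPM in overloaded and 47.3, 39.4 and 36.3 CPM in sham libraries. Its overloaded library 1 lay below the highest sham library, and the log2 fold change was 0.41 (SE 0.30, edgeR adjusted p = 0.330). Psmc6 also overlapped, at 0.47 on the log2 scale (SE 0.26, edgeR adjusted p = 0.176). The Psmc3 call was lost without overloaded library 1 (edgeR adjusted p = 0.103) or any of sham libraries 1, 2 and 3 (0.0597, 0.0998 and 0.0567), over a range of 0.0269 to 0.296. The last 300 bases of Psmc3 also overlap an exon of Slc39a13, so its reads may be shared. The Psmc1 call was lost without sham library 3 (edgeR adjusted p = 0.0740), over a range of 0.00684 to 0.116.

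Of the 11 non-ATPase subunits, 8 were called higher (72.7%, beside 15.0% of all genes tested), with a median log2 fold change of 0.92. Psmd14, the deubiquitinase that cuts the ubiquitin chain off the substrate, had the largest difference of all members. It stood at 263, 291 and 291 CPM in overloaded libraries and 115, 102 and 104 CPM in sham libraries, a 2.63-fold difference (log2 1.40, SE 0.22, edgeR adjusted p = 1.08e-05). Its partner Psmd7 had 100.03, 123 and 111 CPM in overloaded and 55.8, 62.2 and 40.4 CPM in sham libraries. The groups were clear of each other, with a fold change of 1.09 on the log2 scale (SE 0.26, edgeR adjusted p = 0.00177). Psmd13, a lid subunit, had 88.5, 130.4 and 111 CPM in overloaded and 61.6, 37.3 and 49.8 CPM in sham libraries. It was higher by 1.12 on the log2 scale (SE 0.27, edgeR adjusted p = 0.00175). Psmd8, also in the lid, had 143, 142 and 119 CPM in overloaded and 75.9, 80.9 and 67.3 CPM in sham libraries, a fold change of 0.86 on the log2 scale (SE 0.24, edgeR adjusted p = 0.00644). Psmd3, a further lid subunit, had 101.0, 82.8 and 100.6 CPM in overloaded and 50.1, 43.6 and 55.2 CPM in sham libraries. Its log2 fold change was 0.92 (SE 0.26, edgeR adjusted p = 0.00743).

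The scaffolds and ubiquitin receptor of the base were also higher. Psmd2, the scaffold on which shuttle factors and Usp14 dock, had 92.3, 57.7 and 59.0 CPM in overloaded and 35.8, 29.0 and 21.5 CPM in sham libraries. Overloaded library 1 was the highest, and the log2 fold change was 1.28 (SE 0.32, edgeR adjusted p = 0.00266). The scaffold Psmd1 had 154, 149 and 182 CPM in overloaded and 50.1, 99.6 and 105 CPM in sham libraries. Sham library 1 was the lowest by far, and the log2 fold change was 0.94 (SE 0.26, edgeR adjusted p = 0.00601). The receptor Psmd4 had 86.6, 84.0 and 78.7 CPM in overloaded and 34.4, 53.9 and 52.5 CPM in sham libraries. It was higher by 0.83 on the log2 scale (SE 0.28, edgeR adjusted p = 0.0217), a call lost without overloaded library 1 (0.050) or sham library 1 (0.0898), over a range of 0.0165 to 0.164.

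The lid subunits Psmd6, Psmd11 and Psmd12 were not called, with log2 fold changes of 0.74 (SE 0.29), 0.60 (SE 0.26) and 0.78 (SE 0.32) and edgeR adjusted p of 0.0533, 0.0793 and 0.0595. Psmd6 had no overlap between groups. It passed without overloaded library 3 (edgeR adjusted p = 0.0445) and at a minimum count of 30 (0.0466), over a range of 0.0445 to 0.234. Psmd11, the smallest of the 19S lid, had 125, 281 and 254 CPM in overloaded and 135, 172 and 131 CPM in sham libraries. Its overloaded library 1 lay below the sham range, and without it the log2 fold change was 0.91 (edgeR adjusted p = 0.00490, over a range of 0.00490 to 0.283). Psmd12 passed without overloaded library 2 (edgeR adjusted p = 0.0280) or sham library 3 (0.0376), over a range of 0.0280 to 0.777. With all libraries it passed at a minimum count of 30 (edgeR adjusted p = 0.0492) and after thinning (0.0428).

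**Figure D3:**
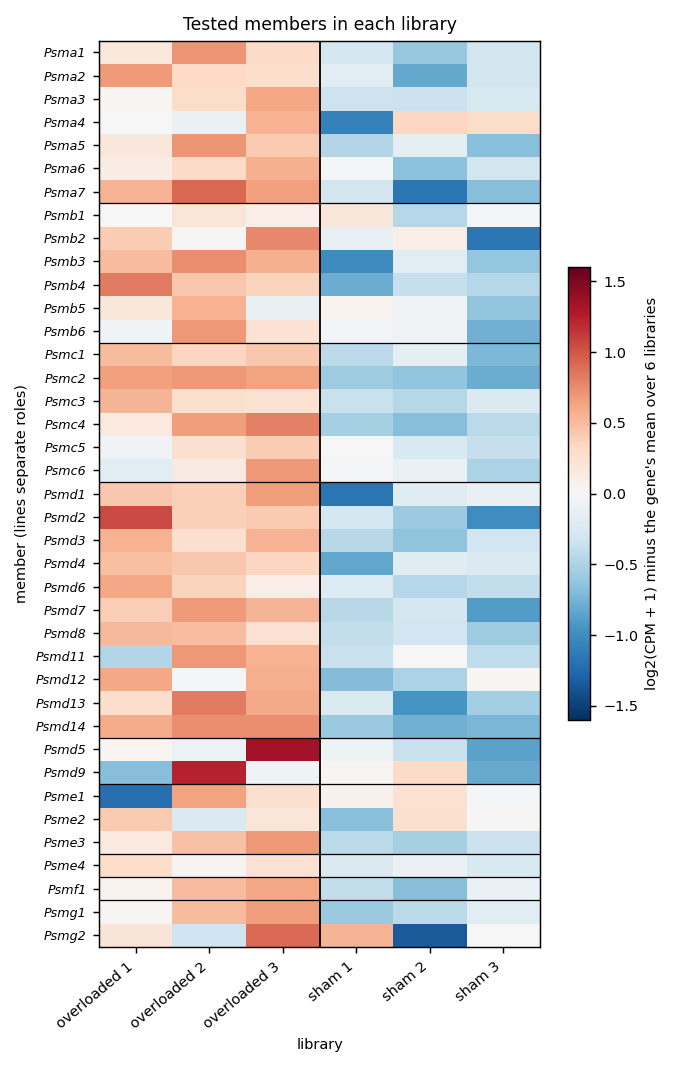
Each of the 39 tested members (rows, lines between roles) in each library (columns), as log2(CPM + 1) minus the member's own mean over the 6 libraries, red above and blue below that mean. The 20S and 19S rows are mostly red in the 3 overloaded columns and blue in the 3 sham columns. Rows that depart from the groups in some libraries include Psma4, Psmb1, Psmb5, Psmd5, Psmd9, Psmd11, Psme1, Psme2 and Psmg2.

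The core was then set against the cap within each library, as the mean log2(CPM + 1) over tested members. The 20S mean was 6.49, 6.65 and 6.62 in overloaded and 5.87, 5.87 and 5.76 in sham libraries. The 19S mean was 6.64, 6.70 and 6.75 in overloaded and 5.81, 5.83 and 5.77 in sham libraries. Both particles were higher in each overloaded library than in any sham library, by 0.75 for 20S and 0.90 for 19S between group means. The 20S mean minus the 19S mean was -0.16, -0.04 and -0.13 in overloaded libraries and 0.07, 0.04 and -0.00487 in sham libraries. These differences did not overlap, but the shift of -0.15 between group means is small beside the change both particles share, and a score over chosen members was given no test. It depended on the low subunits: without a filter the shift was -0.29, and with a minimum count of 30 it was -0.08. As a ratio of summed CPM, 20S over 19S was 0.872, 0.874 and 0.801 in overloaded and 0.944, 0.885 and 0.886 in sham libraries.

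**Figure D4:**
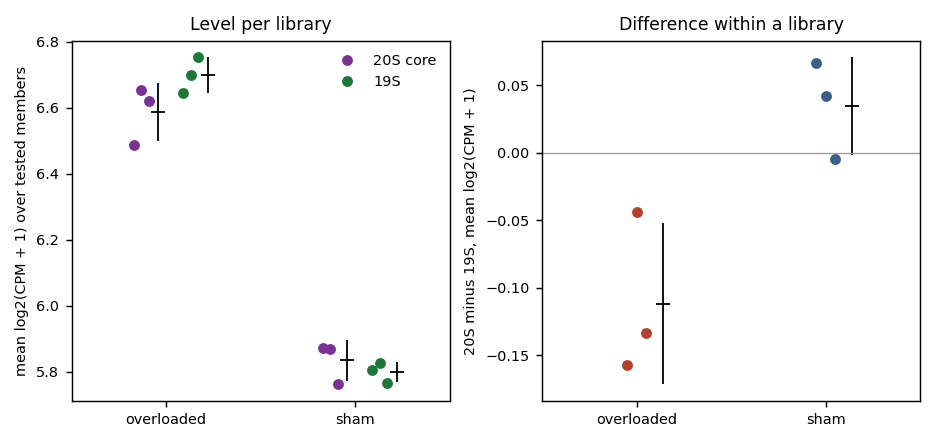
Left, mean log2(CPM + 1) of the tested 20S and 19S subunits in each library, and right, the 20S mean minus the 19S mean in the same library, with points for libraries and black bars for the group mean and SD (n = 3 each). Both particles stand higher in overloaded libraries, and the difference on the right lies at or below -0.04 there and at or above -0.00487 in sham libraries.

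Of the 16 other members 9 were tested, and 2 of these were called higher (22.2%), beside 15.0% of all genes tested. Nothing is read from that count. The median log2 fold change of the 9 was 0.50. Psme3, which forms the nuclear 11S activator, had 237, 294.7 and 345 CPM in overloaded and 158, 147 and 167 CPM in sham libraries. It was higher by 0.89 on the log2 scale (SE 0.22, edgeR adjusted p = 0.00218). Psme1 and Psme2 form the interferon-induced 11S activator and were not called. Psme1 had 15.4, 57.7 and 44.0 CPM in overloaded and 38.7, 43.6 and 36.3 CPM in sham libraries, and overloaded library 1 alone lay below the sham range. Its last 300 bases overlap an exon of Emc9. The Psme1 fold change of -0.04 on the log2 scale (SE 0.37, 95% interval -0.76 to 0.69, edgeR adjusted p = 0.958) became 0.40 without that library. Psme2 had 0.29 on the log2 scale (SE 0.51, edgeR adjusted p = 0.718), with 37 counts in overloaded and 21 in sham libraries. Its near-identical copy Psme2b was listed at 0 counts in all libraries, and how reads that match both were assigned is not stated. Psme4, the PA200 activator, had 82.7, 69.0 and 79.8 CPM in overloaded and 57.3, 62.2 and 56.5 CPM in sham libraries. The groups did not overlap, yet its fold change of 0.40 on the log2 scale (SE 0.26, edgeR adjusted p = 0.263) was not called.

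Assembly factors and the inhibitor were followed at lower counts. Psmd5, a chaperone of the 19S base, was called at 1.01 on the log2 scale (SE 0.38, edgeR adjusted p = 0.0485), from 35.6, 32.6 and 90.2 CPM in overloaded and 32.9, 27.0 and 18.8 CPM in sham libraries. It was the 1 called member whose groups overlapped, and without overloaded library 3 its log2 fold change was 0.41 (edgeR adjusted p = 0.505, over a range of 0.0125 to 0.742). Its call was also lost without any of sham libraries 1, 2 and 3 (edgeR adjusted p = 0.0516, 0.103 and 0.194). The base chaperone Psmd9 had 16.4, 64.0 and 25.4 CPM in overloaded and 27.2, 33.2 and 14.8 CPM in sham libraries, a fold change of 0.50 on the log2 scale (SE 0.45, edgeR adjusted p = 0.442). It was -0.22 without overloaded library 2, and 1.56 and called with the background-read covariate (edgeR adjusted p = 0.0316, over a range of 0.0316 to 0.804). Psmf1, the inhibitor PI31, had 31.7, 43.9 and 47.4 CPM in overloaded and 22.9, 18.7 and 28.3 CPM in sham libraries, with no overlap. Its fold change of 0.78 on the log2 scale (SE 0.35, edgeR adjusted p = 0.0881) was not called. Psmg1, a chaperone of the alpha ring, had 20.2, 28.8 and 32.4 CPM in overloaded and 12.9, 14.5 and 17.5 CPM in sham libraries, also clear of each other, at 0.84 on the log2 scale (SE 0.41, edgeR adjusted p = 0.125). It was called at 1.14 after thinning to equal depth (edgeR adjusted p = 0.0351, over a range of 0.0351 to 0.390). Its partner Psmg2 overlapped widely, with 20.2, 13.8 and 33.5 CPM in overloaded and 25.8, 6.22 and 17.5 CPM in sham libraries, at 0.39 on the log2 scale (SE 0.45, edgeR adjusted p = 0.566).

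Members too low to test are given as counts. Psmd10 (gankyrin, a base chaperone) had 17, 10 and 12 in overloaded and 4, 4 and 3 in sham libraries. Psmg3 and Psmg4, chaperones of alpha ring assembly, had 14, 7 and 21 and then 4, 11 and 7 in overloaded libraries, and 8, 3 and 7 and then 4, 4 and 3 in sham libraries. The testis subunit Psma8 had 0 counts in all libraries, where 3 counts over a group would be 1.11 CPM in overloaded and 1.56 CPM in sham libraries. The thymus subunit Psmb11 had 0 counts in overloaded and 8, 1 and 0 in sham libraries, and its last 300 bases match 16 other genes. Psmc3ip, a meiotic recombination factor that met the rule by name only, had 4, 11 and 3 counts in overloaded and 1, 0 and 1 in sham libraries. Of all 47 members, 13 have exons that overlap another gene, and 8 have a copy of at least 95% identity over 100 bases of their last 300 bases elsewhere, among them the called members Psma5, Psmb3 and Psmd2. The counts of their copies were far lower than their own, at 2 counts over all libraries for each of the 3 against 864, 391 and 248. Psmb5 is another, with 7 counts in its copies against 73.

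The immunoproteasome subunits, which replace the catalytic ones after interferon, were not called, also not by DESeq2, limma-voom or at an unadjusted p under 0.05 (0 of 1 tested). Psmb10 had 13.5, 21.3 and 6.94 CPM in overloaded and 15.8, 24.9 and 26.9 CPM in sham libraries, a fold change of -0.69 on the log2 scale (SE 0.45, edgeR adjusted p = 0.267). Psmb8 and Psmb9 were too low to test. Psmb9 made up 10 of 309 counts of Psmb9 and Psmb6 together in overloaded libraries (3.24%, exact 95% interval 1.56 to 5.87) and 15 of 157 in sham libraries (9.55%, 5.45 to 15.3). Per library the share was 2.17%, 3.31% and 4.17% in overloaded and 11.6%, 4.55% and 11.4% in sham libraries, without overlap. Psmb8 took 33.3% of the counts of Psmb8 and Psmb5 in overloaded (exact 95% interval 22.7 to 45.4) and 46.8% in sham libraries (32.1 to 61.9), where 18 of the 22 sham counts came from sham library 3. Psmb10 took 77.1% of the counts of Psmb10 and Psmb7 in overloaded (62.7 to 88.0) and 70.5% in sham libraries (57.4 to 81.5). Such shares compare genes without a length correction and are read only between groups, and their intervals cover counting error only. Whether amplified reads were collapsed to molecules was not stated, and uncollapsed reads would not be independent molecules.

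Other genes of the pathway were taken from lists by role. Of 8 tested proteasome parts and partners outside the naming rule, 3 were called higher and 0 lower, while limma-voom called 4 higher. Over all genes tested, edgeR called 15.0% higher and limma-voom 14.3%, and lists of this size are given as counts only. The deubiquitinase Uchl5 had 34.6, 47.7 and 50.9 CPM in overloaded and 15.8, 20.7 and 8.07 CPM in sham libraries (log2 fold change 1.62, SE 0.39, edgeR adjusted p = 0.00194). The deubiquitinase Usp14 had a fold change of 1.0 on the log2 scale (SE 0.28, edgeR adjusted p = 0.00673), and the 19S-bound thioredoxin-like Txnl1 had 1.29 on the log2 scale (SE 0.24, edgeR adjusted p = 0.000113). The genes not called ranged from -0.33 (Zfand5) to 0.64 (Pomp, which matures the core, edgeR adjusted p = 0.0560). Thus both deubiquitinases that dock on the 19S particle rose along with Psmd14, the deubiquitinase within it.

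Upstream of the proteasome, edgeR called 2 of 5 tested shuttle factors higher, beside 15.0% of all genes, and DESeq2 called 1, beside 12.3%. In edgeR these were Rad23b at 0.87 on the log2 scale (SE 0.22, edgeR adjusted p = 0.00347) and Ubqln1 at 0.75 on that scale (SE 0.28, edgeR adjusted p = 0.0406). Of 8 genes of the p97 segregase, which pulls ubiquitinated proteins out of complexes and membranes, 2 were called higher, the ATPase Vcp and its cofactor Nploc4, and nothing is read from this count beside the 15.0%. Vcp had 499, 475 and 573 CPM in overloaded and 179, 276 and 265 CPM in sham libraries (log2 fold change 1.11, SE 0.21, edgeR adjusted p = 0.000176). Nploc4 had 1.44 on the log2 scale (SE 0.36, edgeR adjusted p = 0.00279). Of 4 tested ubiquitin genes and E1 enzymes, 2 were called higher, again too few to set against the 15.0%: Uba1, which activates ubiquitin, rose by 0.77 on the log2 scale (SE 0.22, edgeR adjusted p = 0.00720) and Rps27a, a fusion of ubiquitin and a ribosomal protein, by 0.66 on that scale (SE 0.23, edgeR adjusted p = 0.0330). The polyubiquitin gene Ubb was not called, at -0.57 on the log2 scale (SE 0.24, edgeR adjusted p = 0.0683).

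Of 6 tested transcription factors and processing genes behind proteasome expression, 0 were called in either direction by edgeR, DESeq2 or limma-voom. In all of these tools 0 had an unadjusted p under 0.05. Over all genes tested edgeR called 15.0% higher and 14.3% lower, and nothing is read from 0 of 6. Nfe2l1, which drives proteasome genes when degradation fails, had 83.7, 80.3 and 71.7 CPM in overloaded and 68.7, 104 and 71.3 CPM in sham libraries. Its log2 fold change was -0.03 (SE 0.26, 95% interval -0.53 to 0.47, edgeR adjusted p = 0.950). Nfe2l2, the oxidative stress factor, had 0.14 on the log2 scale (SE 0.27, 95% interval -0.38 to 0.66, edgeR adjusted p = 0.754). These factors are controlled largely at the protein level, which was not measured.

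**Figure D5:**
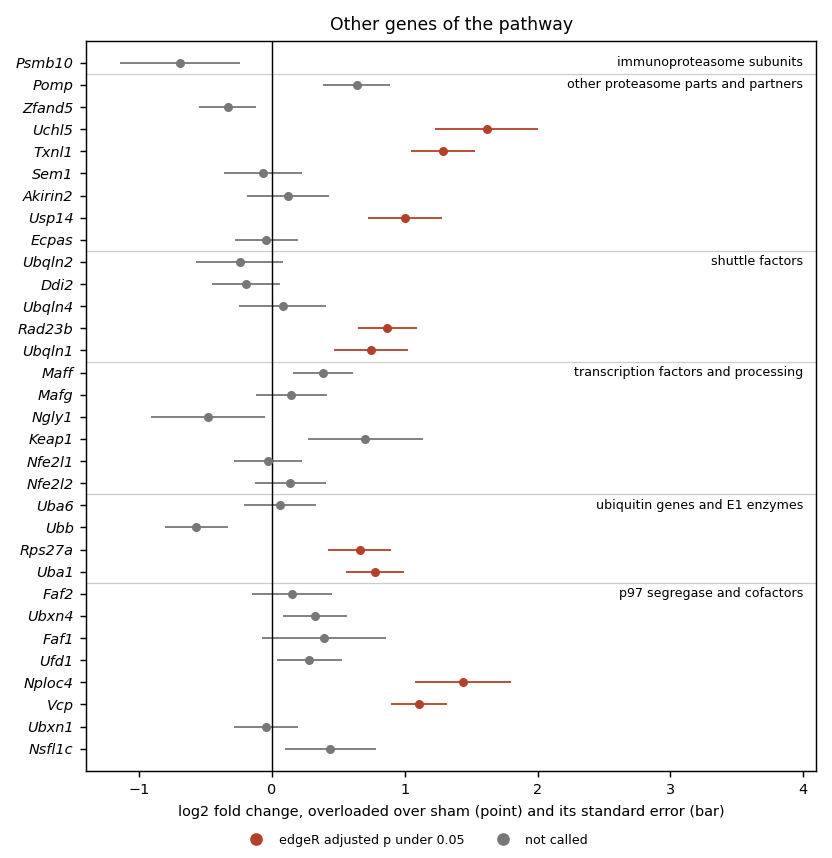
Log2 fold change (overloaded over sham, horizontal axis) of tested pathway genes outside the naming rule, by list from top to bottom, with bars of 1 standard error. The 9 called genes (red) lie between 0.66 and 1.62, and Psmb10 and Ubb have the lowest values.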

How the data were processed

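RNA of sorted FAPs was measured in 6 libraries. The authors deposited 1 table of raw counts per gene, whole numbers that are not normalised. Per the submitters' processing notes, the GRCm38 build was used with HISAT2 2.2.1, Trim Galore 0.6.6, DESeq2 1.28.1 and featureCounts 2.0.1. Strandedness, multimapping rules, gene annotation and handling of molecular identifiers went unstated, so overlapping genes and amplification copies may not be resolved.

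Counts were fitted in edgeR 4.0.16 (R 4.3.3) with TMM scaling, filterByExpr (minimum count 10, minimum total 15) and robust quasi-likelihood F tests, overloaded against sham without covariates, with Benjamini-Hochberg adjustment. CPM were computed here from the deposited counts and TMM-scaled library sizes. Standard errors are the absolute log2 fold change over the square root of F (median 0.26 among members, 0.33 among all tested genes), and 95% intervals are normal approximations. The code was tested on simulated data. No replicates agreed within sampling noise (chi-square per degree of freedom 3.75 to 6.61).

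Positions come from GENCODE M21, copies from blastn 2.17.0 and promoters from RefSeq. Every member is named, with full values for called members, extremes of each role and catalytic subunits, and called genes of the other lists are named. The members and lists were chosen with earlier results of these data known. Some genes of the other lists are not reported here. Alternatives were RLE or library size scaling, DESeq2 1.42.0, limma-voom 3.58.1, no filter, a minimum count of 30, a replicate block, thinning, a background-read covariate and leaving out each library.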

Additional observations from a re-analysis of the deposited data

How the results depend on the processing

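Of the 15 alternatives, the background-read covariate moved the count of members called higher by over 1.5 times: 11 were called, against 21 without it, and 5 of the 19S subunits; 9 of the 21 remained, and the medians were 0.931 (20S) and 0.915 (19S). Those 9 were called under every alternative: Psma5, Psma7, Psmb3, Psmb4, Psmc2, Psmd7, Psmd8, Psmd13 and Psmd14. Other counts were 18 to 22, of 31 to 45 members tested. The share of all genes called higher was then 3.8% (no filter) to 21.4% (minimum count of 30). With a library left out, 17 to 21 of 39 to 41 tested members were called, beside 11.2% to 14% of all genes. Of the 21, 16 to 19 then remained, and 14 were called whichever library was left out. The replicate block called 19, all among the 21; same-numbered libraries deviated together with correlations of 0.0161, 0.0143 and 0.0220, so the numbers were not read as pairs. The 19S median was 0.803 with library size only, 0.954 without a filter and 0.930 thinned, and 0.893 to 0.977 with a library left out. The 20S median then was 0.650 to 0.883. The difference of 20S and 19S means was -0.289 without a filter and -0.0751 at a minimum count of 30. Signs reversed only in uncalled members. With the covariate, values were -0.175 (Psma4), 0.452 (Psme1), -0.0499 (Psme2) and -0.427 (Psmg2), and Psme1 was 0.0440 without a filter. Leaving out a library gave -0.101 to 0.507 for Psma4, -0.219 to 0.888 for Psmd9 and -0.409 to 0.398 for Psme1. The cause was not tested. Depth limits Psma4, Psmb5, Psme2, Psmg2 and the members too low to test.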
